A study of Homo sapiens with 6 samples.

Results

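Collagens are the rod-like proteins of the extracellular matrix, and 10 of their genes were followed in HK-2 cells, an established human kidney line of proximal tubule origin, after knockdown of PARP1. The genes were taken by symbol from the deposited table of read counts: COL1A1, COL5A1, COL5A2, COL6A1, COL6A2, COL7A1, COL8A1, COL12A1, COL13A1 and COL16A1, which are 10 of the 30403 genes in that table. The shPARP1 group is 3 libraries from cells transfected with a plasmid for an shRNA against PARP1, and shCtrl is 3 libraries from cells transfected with a control shRNA plasmid. In both groups the plasmids were introduced with a lipid reagent and RNA was taken from the whole culture 48 h later, and the labels describe no selection of transfected cells. The labels give neither the shRNA sequence nor whether replicates were separate cultures, so the p-values speak only for library-to-library variation, which could be technical. The title of the series names matrix genes bound and regulated by PARP1, a nuclear enzyme that builds poly(ADP-ribose) at DNA breaks and on chromatin, and the comparison asks how these genes stood without most of its transcript.

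Every collagen is a trimer of chains in which glycine recurs in a Gly-X-Y pattern, and the chains wind into a triple helix after being hydroxylated, glycosylated and chaperoned in the endoplasmic reticulum. Type I and type V are fibrillar collagens, and type V starts and limits the width of type I fibrils. Types XII and XVI associate with fibrils through interrupted helices, type VI forms beaded microfilaments, type VII forms the anchoring fibrils under epithelia, type VIII is a short-chain network collagen and type XIII spans the plasma membrane. In the fibrotic kidney, interstitial collagen is laid down mostly by fibroblasts, while tubular cells are chiefly in contact with basement membrane. The genes described here thus cover fibrillar, beaded and short-chain collagens together with an anchoring and a membrane type.

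The repeat that defines these genes can be read in their exons. In fibrillar collagen genes many coding exons hold exactly 54 bases, which is 6 Gly-X-Y triplets, and 9 of the 10 genes, all but COL8A1, have such an exon in their longest glycine repeat. Those of the 3 fibrillar genes and of the beaded COL6A2 are shown because they let the repeat be compared between these classes. Each is the first in-frame exon of that size inside the gene's longest glycine repeat, from GENCODE transcripts on GRCh38. They are written 5′ to 3′ on the gene's strand, with the glycine codon that opens each triplet in capitals. Glycine codons at other places in a triplet, as in COL5A1 (gga) and COL5A2 (ggt), are in lower case.
COL1A1: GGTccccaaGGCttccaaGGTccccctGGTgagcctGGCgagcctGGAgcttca
COL5A1: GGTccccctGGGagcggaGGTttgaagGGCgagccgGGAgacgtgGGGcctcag
COL5A2: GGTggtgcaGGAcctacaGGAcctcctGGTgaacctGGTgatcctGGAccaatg
COL6A2: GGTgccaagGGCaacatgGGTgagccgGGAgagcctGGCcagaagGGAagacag
They lie at chr17:50197949-50198002 on the minus strand (exon 8 of COL1A1), chr9:134753850-134753903 on the plus strand (exon 15 of COL5A1), chr2:189085719-189085772 on the minus strand (exon 10 of COL5A2) and chr21:46115872-46115925 on the plus strand (exon 6 of COL6A2). The plan of the proteins differs widely around this unit. The longest unbroken run of glycine triplets was 338 in COL1A1, 338 in COL5A1 and 339 in COL5A2, against 87 in each of COL6A1 and COL6A2, 75 in COL7A1, 61 in COL8A1, 57 in COL16A1, 44 in COL13A1 and 32 in COL12A1. COL12A1 has the longest coding sequence of the set, 3063 residues, and only 8.2% of its codons lie in such runs of 6 triplets or more, whereas COL1A1 has 1464 residues and 72.7%. Despite the repeat, little sequence is shared letter for letter with other genes. For 6 of the 10 genes no stretch of 31 bases of the longest coding transcript occurred in a transcript of another gene, and the highest share was 2.1%, in COL8A1.

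The knockdown was visible in the target. PARP1 averaged 27.3 ± 1.37 CPM in shPARP1 and 261 ± 2.37 CPM in shCtrl (SD, n = 3 each; CPM is the count scaled to library size, here with the TMM factors of edgeR). Library totals were 29387853 to 32809303 counts in shPARP1 and 24429683 to 26269194 counts in shCtrl, so all 3 knockdown libraries were deeper. Of the 14 proximal tubule and epithelial markers, 9 were tested, 2 of these were higher and 5 lower in shPARP1. Their summed level was 1828 to 1871 CPM in shPARP1 and 2024 to 2073 CPM in shCtrl, and it was carried by PAX8, KRT8, KRT18, CDH6 and GGT1. Among these carriers KRT18 (log2 fold change 0.591) and KRT8 (0.105) were higher, and CDH6 (-1.054), GGT1 (-0.298) and PAX8 (-0.275) lower. Markers of the differentiated tubule were mixed in level. GGT1 averaged 237 CPM in shPARP1 and 291 CPM in shCtrl. AQP1 averaged 1.63 CPM in shPARP1 and 2.21 CPM in shCtrl and was not called (edgeR adjusted p = 0.0850). LRP2, CUBN, SLC34A1, ANPEP and MME had at most 13 counts in any library. Of 10 fibroblast and pericyte markers, the 8 in the table summed to 12.6 to 13.2 CPM in shPARP1 and 21.5 to 24.8 CPM in shCtrl. Of the 5 that were tested 1 was higher and 3 were lower in shPARP1, where all genes tested had 27.3% higher and 28.5% lower. LUM, a fibril-binding proteoglycan, made up most of the sum, at 7.72 ± 0.758 CPM in shPARP1 and 14.8 ± 1.46 CPM in shCtrl (log2 fold change -0.94, edgeR adjusted p = 5.63e-12), and PDGFRB, a pericyte receptor, had a log2 fold change of -1.49, ACTA2 of -0.88 and THY1 of 1.03 (the last 3 named after their values were seen). COL3A1, PDGFRA and DCN had 12 counts or fewer in each library, and PDGFRA had 0 in all 3 shPARP1 libraries. Endothelial markers summed to at most 0.437 CPM in shPARP1 and 0.539 CPM in shCtrl, and leukocyte markers to 10.92 to 11.41 CPM in shPARP1 and 13.95 to 15.45 CPM in shCtrl. The 2 leukocyte markers tested went opposite ways. CD68 was higher, at 8.29 CPM in shPARP1 and 6.50 CPM in shCtrl (edgeR adjusted p = 0.00732). CD14 was lower, at 2.72 CPM in shPARP1 and 8.14 CPM in shCtrl (edgeR adjusted p = 3.26e-14). The part of these marker differences in the collagen results was not tested, and in bulk RNA fewer cells of a type cannot be told apart from less RNA per cell.

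All 10 collagen genes were called, 3 higher and 7 lower after PARP1 knockdown, at an adjusted p under 0.05 in edgeR's quasi-likelihood test over 16040 genes. Calls were frequent everywhere in this comparison: 55.7% of all genes tested were called, 27.3% higher and 28.5% lower. COL5A2 could be tested only because of its counts in shPARP1, the group where it is higher, so its call had a difference built in and the other 9 genes give 2 higher and 7 lower. COL5A1 and COL7A1 rose, and COL8A1, COL12A1, COL13A1, COL16A1, COL6A1, COL6A2 and, by a small margin, COL1A1 fell. For each of the 9 genes other than COL5A2 the shPARP1 and shCtrl libraries occupied separate CPM ranges, as they did for 60.1% of all genes tested. Those of COL5A2 were separate too, with the same built-in difference. The median log2 fold change was -0.20 over the 10 genes and -0.01 over all genes tested, and the median size, regardless of sign, was 0.50 and 0.34. COL13A1 passed a 2-fold change, and so did COL5A2 with the limit just given; these are the 2 rarest transcripts of the set, and 6.71% of all genes tested passed it.

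**Figure D1:**
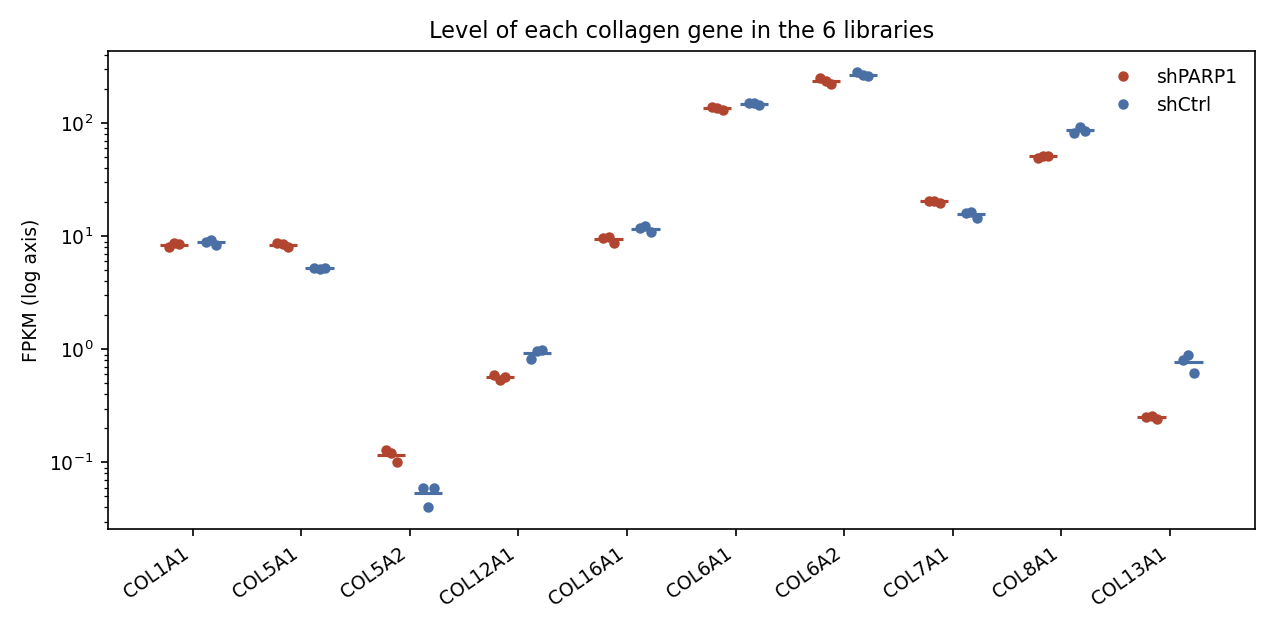
FPKM (log axis) of each collagen gene in the 3 shPARP1 and 3 shCtrl libraries, as points, with a line at each group's mean. The genes run from 0.0400 FPKM for COL5A2 to 281 FPKM for COL6A2, and the pairs of groups lie close for COL1A1, COL6A1 and COL6A2 and apart for COL13A1 and COL5A2.

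By level, the beaded filament genes dominated. In FPKM (fragments scaled to transcript length and library size, the authors' unit), COL6A2 averaged 237 ± 12.3 in shPARP1 and 270 ± 10.8 in shCtrl, and COL6A1 136 ± 3.59 in shPARP1 and 149 ± 2.53 in shCtrl (SD, n = 3 each). COL8A1 came next, then COL7A1, COL16A1, COL1A1, COL5A1, COL12A1, COL13A1 and COL5A2, and this order of means was the same in both groups. The ranges of most neighbours in the order did not overlap. In shPARP1 those of COL1A1 and COL5A1 did, at 8.13 to 8.67 FPKM and 8.0 to 8.76 FPKM, and COL16A1, at 8.79 to 9.77 FPKM, lay above COL1A1 by less than its own spread. In shCtrl COL1A1 and COL5A1 were apart, at 8.46 to 9.20 FPKM and 5.17 to 5.29 FPKM. COL12A1 and COL13A1 overlapped in shCtrl, at 0.820 to 0.980 and 0.620 to 0.890 FPKM, but not in shPARP1, where they lay at 0.540 to 0.590 and 0.240 to 0.260 FPKM.

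Among the fibrillar genes COL5A1 rose, COL1A1 barely moved, and COL5A2 was too rare for a call free of the filter on low counts. COL1A1 encodes the main chain of type I collagen and spans chr17:50183289-50201632 on GRCh38 (minus strand), the build used for every position given here. It had 61.4, 65.1 and 64.4 CPM in shPARP1 against 69.8, 70.3 and 65.7 CPM in shCtrl. The highest shPARP1 library lay just under the lowest shCtrl library, and in FPKM the groups overlapped. The log2 fold change of COL1A1 was -0.11 (SE 0.05, edgeR adjusted p = 0.0470), and with an offset for gene length and GC content it was 0.11 (edgeR adjusted p = 0.0223). The small fall of COL1A1 therefore had the other sign with the offset. Being fitted to each library, the offset also takes out any difference between the groups that follows length or GC. The fall lost its call when any library other than shCtrl replicate 3 was left out, with edgeR adjusted p between 0.0607 and 0.236.

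COL5A1 encodes the chain present in every common form of type V collagen and spans chr9:134641774-134844843 (plus strand). It had 83.8, 81.8 and 76.2 CPM in shPARP1 against 52.7, 50.2 and 52.2 CPM in shCtrl. The lowest knockdown library stood well above the highest control library, and the groups did not overlap. The rise was 1.56-fold, a log2 fold change of 0.64 (SE 0.05, edgeR adjusted p = 2.17e-17), and 0.86 with the length and GC offset.

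COL5A2 encodes the partner chain of the type V heterotrimer and spans chr2:189031896-189225312 (minus strand), 19150 bases from COL3A1. It was rare, with 33, 28 and 24 counts in shPARP1 against 11, 9 and 12 counts in shCtrl. All knockdown libraries were above all control libraries, yet the gene passed the filter on low counts through the shPARP1 libraries alone, so that a difference was built into its being tested. The log2 fold change of COL5A2 was 1.10 (SE 0.38, edgeR adjusted p = 0.0113), and without shPARP1 replicate 1 it was 1.02 (edgeR adjusted p = 0.0544).

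The type V chains were present in very unequal amounts, and COL1A1 over COL5A1 was lower in every shPARP1 library than in any shCtrl library. COL5A1 stood above COL5A2 in FPKM by 67.4, 71.6 and 80.0 times in the shPARP1 libraries and by 88.2, 129 and 88.2 times in the shCtrl libraries. The COL5A2 values behind these ratios are FPKM of 0.0400 to 0.130 rounded to steps of 0.01, so the ratios are coarse, and adding 1 to each FPKM turns the direction of their difference. The difference was -0.46 on the log2 scale (exact permutation test, two-sided, p = 0.1, 0.150 adjusted over 3 ratios), and 0.1 is the smallest p that 3 libraries against 3 allow. COL1A1 over COL5A1 was 0.928, 1.01 and 1.07 in shPARP1 against 1.68, 1.78 and 1.60 in shCtrl, a log2 difference of -0.75 (exact permutation test, two-sided, p = 0.1, adjusted 0.150). The transcripts were thus near equal in shPARP1, while COL1A1 was the higher in shCtrl. COL1A2, the second chain of type I collagen, was not analysed here. Of the genes for other fibrillar chains, COL3A1 had 8 counts or fewer and COL5A3 had 3 or fewer in each library. Others were present: COL27A1 averaged 70.1 CPM in shPARP1 and 70.6 CPM in shCtrl, and COL11A1 12.8 CPM in shPARP1 and 13.4 CPM in shCtrl. Neither COL27A1 nor COL11A1 was called (edgeR adjusted p = 0.872 and 0.587).

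**Figure D2:**
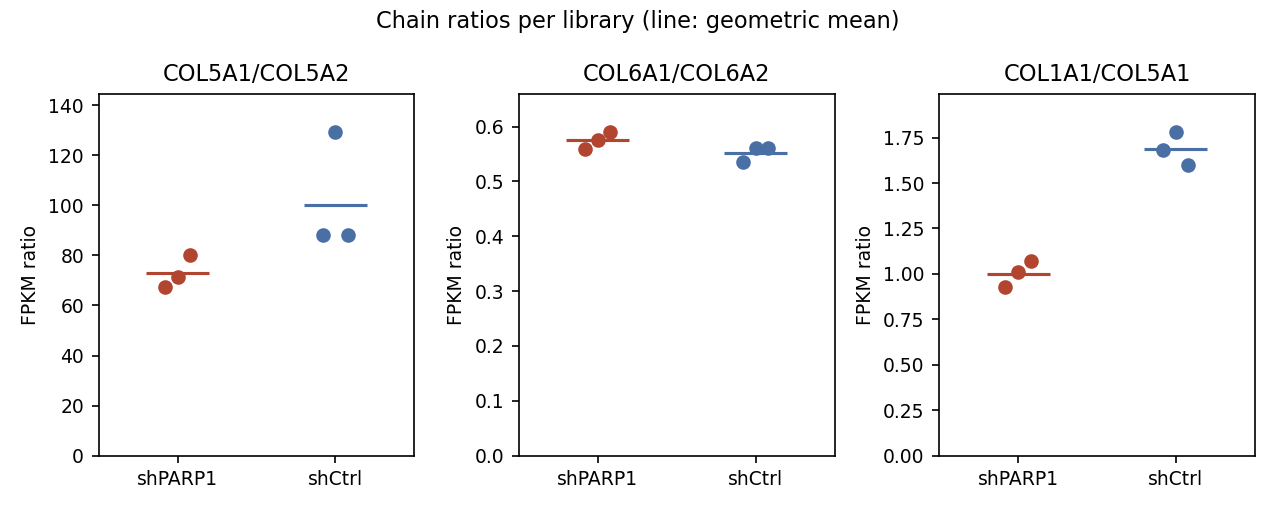
Ratio of FPKM (vertical axis, from 0) of COL5A1 to COL5A2, COL6A1 to COL6A2 and COL1A1 to COL5A1 in each of the 3 shPARP1 and 3 shCtrl libraries, with a line at the geometric mean. COL1A1 to COL5A1 averaged 1.00 in shPARP1 and 1.69 in shCtrl, whereas COL6A1 to COL6A2 overlapped between the groups.

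The fibril-associated members both fell. COL12A1, whose product decorates type I fibrils and is made in tissues under tension, spans chr6:75084326-75206051 (minus strand). It had 7.95, 7.26 and 7.69 CPM in shPARP1 against 11.7, 13.4 and 13.7 CPM in shCtrl. The fall left 59.1% of the control level, a log2 fold change of -0.76 (SE 0.10, edgeR adjusted p = 3.51e-09), and the groups were well apart. On log2(FPKM + 1), a scale that compresses low values, the log2 fold change of COL12A1 was -0.295 (limma adjusted p = 0.00297). COL16A1 encodes a minor fibril-associated collagen and spans chr1:31652247-31704319 (minus strand). It had 66.9, 66.9 and 60.1 CPM in shPARP1 against 85.1, 85.8 and 77.6 CPM in shCtrl. The log2 fold change was -0.36 (SE 0.05, edgeR adjusted p = 6.83e-09), and the length and GC offset left -0.12 of it (edgeR adjusted p = 0.0122).

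The beaded filament genes COL6A1 and COL6A2 fell by a small and similar amount. They are neighbours in the same direction on the plus strand of chromosome 21, COL6A1 from 45981737 to 46005050 and COL6A2 from 46098097 to 46132849, and encode the short chains of type VI collagen. COL6A1 had 664, 643 and 626 CPM in shPARP1 against 744, 723 and 715 CPM in shCtrl, and its log2 fold change was -0.17 (SE 0.03, edgeR adjusted p = 2.73e-06). COL6A2 had 1231, 1161 and 1103 CPM in shPARP1 against 1445, 1338 and 1322 CPM in shCtrl, and its log2 fold change was -0.23 (SE 0.03, edgeR adjusted p = 2.36e-07). Each gene had all knockdown libraries below all control libraries. With the length and GC offset both changes were close to 0, at 0.02 for each gene, and neither was called (edgeR adjusted p = 0.489 for COL6A1 and 0.381 for COL6A2).

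The ratio of these chains did not separate the groups. COL6A1 over COL6A2 in FPKM was 0.560, 0.575 and 0.590 in shPARP1 against 0.535, 0.561 and 0.561 in shCtrl, and the groups overlapped (log2 difference 0.06, exact permutation test, two-sided, p = 0.300, adjusted 0.300). The longer partner chain that completes the usual type VI trimer was close to 0: COL6A3 had 7 to 9 counts in shPARP1 and 6 to 10 counts in shCtrl, or at most 0.0300 FPKM. Of its alternatives, COL6A5 had at most 1 count in a library.

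COL7A1, the anchoring fibril gene, whose product is secreted by epithelial cells to tether basement membrane to the stroma, rose. It spans chr3:48564073-48595267 (minus strand), and its coding sequence is cut into 118 exons. It had 214, 214 and 205 CPM in shPARP1 against 174, 173 and 154 CPM in shCtrl. The groups did not overlap, and the log2 fold change was 0.34 (SE 0.04, edgeR adjusted p = 1.72e-10). The length and GC offset gave a larger value, 0.64. The genes on either side are on the same strand: UCN2 begins 300 bases beyond COL7A1, and UQCRC1, a subunit of respiratory complex III, ends 3735 bases from it. UQCRC1 was higher in shPARP1 by 0.24 on the log2 scale (edgeR adjusted p = 2.45e-08), and UCN2 had a log2 fold change of 0.29 (edgeR adjusted p = 0.0893).

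COL8A1, the short-chain network collagen of endothelial and other basement membranes, fell with the smallest adjusted p of the set. It spans chr3:99638475-99799226 (plus strand). It had 316, 329 and 330 CPM in shPARP1 against 545, 604 and 564 CPM in shCtrl. The groups were far apart relative to their spread, and the log2 fold change was -0.81 (SE 0.03, edgeR adjusted p = 4.14e-28), which leaves 56.9% of the control level. COL8A2, which encodes the other type VIII chain, averaged 33.6 ± 0.577 CPM in shPARP1 and 46.1 ± 2.79 CPM in shCtrl (SD, n = 3 each) and fell by 0.45 on the log2 scale (edgeR adjusted p = 2.11e-09). It was chosen as the partner chain after its values were seen. Of the tested genes that flank COL8A1, DCBLD2 fell by 1.53 on the log2 scale (edgeR adjusted p = 1.23e-40) and CMSS1 rose by 1.45 (edgeR adjusted p = 1.11e-30).

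COL13A1, the transmembrane collagen of cell adhesion sites, had the deepest fall. It spans chr10:69801867-69964275 (plus strand). It had 29, 28 and 25 counts in shPARP1 against 70, 81 and 58 counts in shCtrl, or 0.880, 0.908 and 0.839 CPM against 2.92, 3.12 and 2.23 CPM. All knockdown libraries were below all control libraries by more than the spread within either group. The log2 fold change was -1.65 (SE 0.24, edgeR adjusted p = 3.13e-08), so that 31.9% of the control level was left. On log2(FPKM + 1) the log2 fold change of COL13A1 was -0.502 (limma adjusted p = 0.000157).

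**Figure D3:**
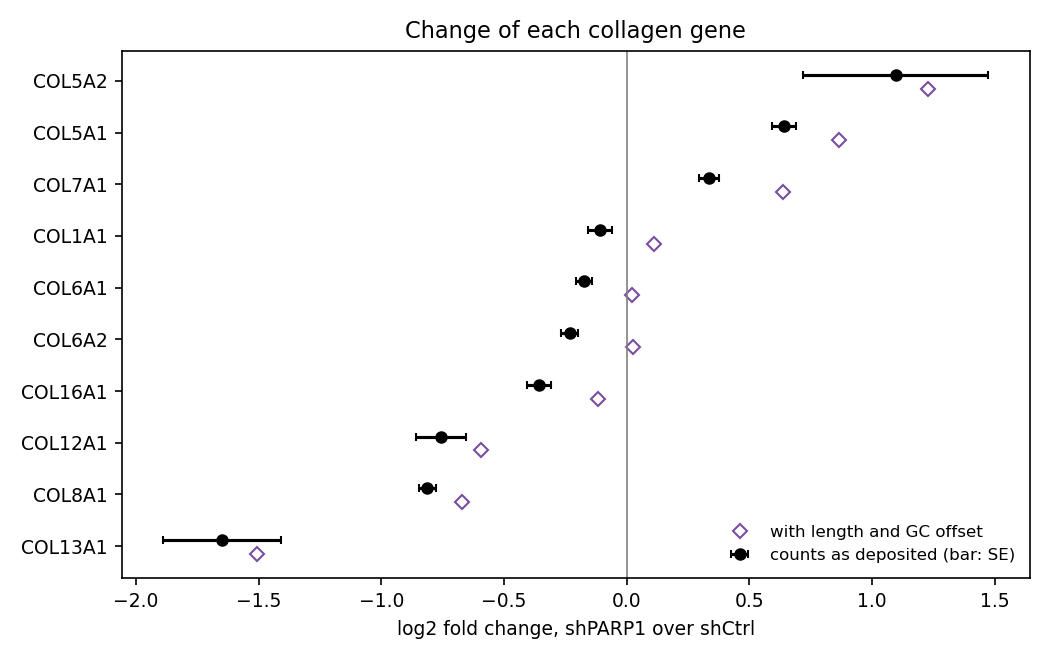
Log2 fold change of shPARP1 over shCtrl for each collagen gene, from the counts as deposited (filled, bar: SE) and with an offset for gene length and GC content (open). COL5A2, COL5A1 and COL7A1 lie above 0 and COL13A1, COL8A1, COL12A1 and COL16A1 below 0 in both, whereas COL1A1, COL6A1 and COL6A2 lie below 0 without the offset and above 0 with it.

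The changes of the set therefore fall into 3 kinds when the counts as deposited are set beside the length and GC offset. With the offset, 4 genes were higher, 4 lower and 2 not called, where all genes tested had 30.6% higher and 25.9% lower. COL5A1, COL5A2 and COL7A1 were higher and COL8A1, COL12A1, COL13A1 and COL16A1 lower in both fits. Both fits used the same filtered genes, so the difference built into the testing of COL5A2 was present in both. COL1A1, COL6A1 and COL6A2, the members with the smallest changes, had the opposite sign. The median log2 fold change of the 10 genes was 0.02 with the offset.

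As a share of the collagen transcript pool, the 10 genes grew although their own sum shrank. Over the 36 collagen genes with FPKM values, the summed level was 863, 850 and 816 FPKM in shPARP1 against 1114, 1108 and 1065 FPKM in shCtrl. The 10 genes summed to 487, 473 and 455 FPKM in shPARP1 against 558, 556 and 533 FPKM in shCtrl. Their share of the pool was 55.9% ± 0.387 in shPARP1 and 50.1% ± 0.0985 in shCtrl (SD, n = 3 each), with no overlap. COL6A1 and COL6A2 made up 44.2% ± 0.729 in shPARP1 and 38.2% ± 0.534 in shCtrl, and the 3 fibrillar genes 2.02% ± 0.0423 in shPARP1 and 1.29% ± 0.0114 in shCtrl. The basement membrane pair COL4A1 and COL4A2 together took a smaller part in the knockdown, 32.7% ± 0.364 in shPARP1 and 37.2% ± 0.245 in shCtrl. The 2 chains differed. COL4A2 averaged 225 ± 6.10 FPKM in shPARP1 and 355 ± 9.12 FPKM in shCtrl. COL4A1 changed little, at 50.2 ± 0.705 FPKM in shPARP1 and 52.1 ± 1.39 FPKM in shCtrl. These shares were not corrected for length or GC content and were not tested further, since 3 libraries against 3 cannot reach an exact permutation p under 0.1.

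**Figure D4:**
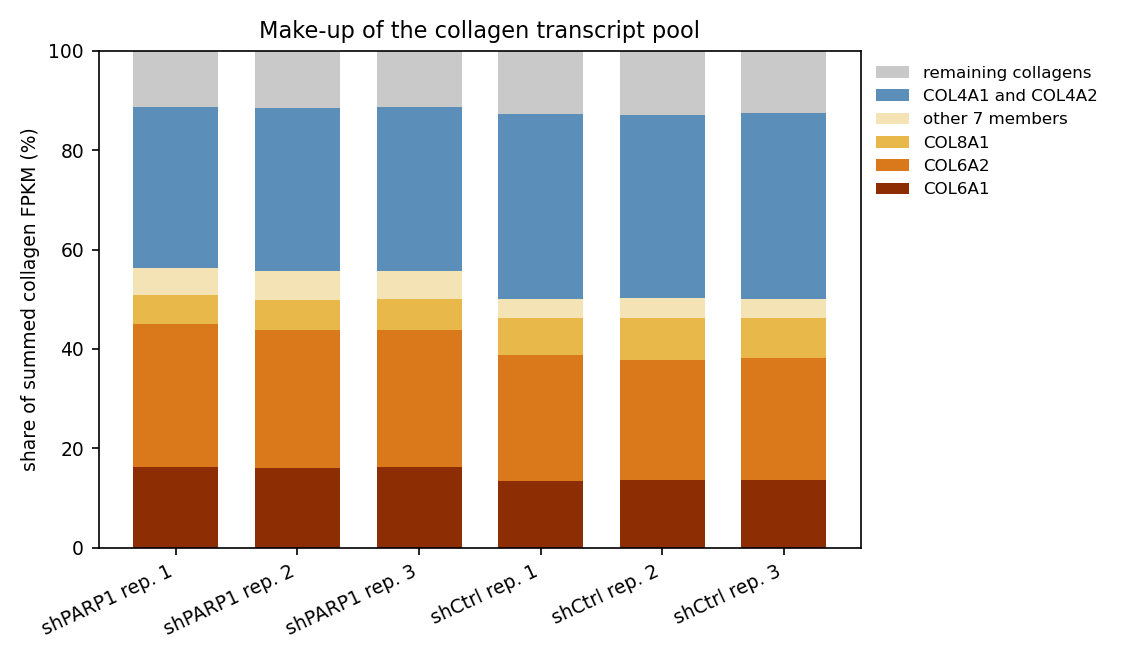
Share of the summed FPKM of 36 collagen genes (vertical axis, percent) held by the named genes in each library, the 3 shPARP1 bars left of the 3 shCtrl bars. COL6A1 and COL6A2 together fill 43.8% to 45.1% of the shPARP1 bars and 37.7% to 38.8% of the shCtrl bars.

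Promoter sequence was available for 6 of the 10 genes. The 250 bases upstream of the RefSeq start are shown for COL5A1 and COL7A1, which rose, and for COL12A1 and COL13A1, which had the largest falls among those 6. They come from RefSeq on GRCh38.p14 and are written 5′ to 3′ on the gene's strand. Capitals mark the GC box GGGCGG, to which Sp1-type factors bind, the CCAAT box CCAAT and the TATA box TATAAA. Each was searched by its letters alone, on both strands and at any position in the window. None of these motifs overlapped another.
COL5A1: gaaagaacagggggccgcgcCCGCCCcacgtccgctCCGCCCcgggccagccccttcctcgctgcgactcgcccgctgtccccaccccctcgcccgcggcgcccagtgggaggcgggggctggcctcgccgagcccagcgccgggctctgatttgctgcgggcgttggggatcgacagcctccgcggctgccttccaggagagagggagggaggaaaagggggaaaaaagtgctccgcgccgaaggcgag
COL7A1: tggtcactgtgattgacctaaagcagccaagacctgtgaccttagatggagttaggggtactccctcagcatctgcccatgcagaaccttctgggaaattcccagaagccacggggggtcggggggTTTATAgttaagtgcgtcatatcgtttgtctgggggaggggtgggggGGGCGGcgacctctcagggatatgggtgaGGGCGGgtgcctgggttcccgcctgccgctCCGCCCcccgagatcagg
COL12A1: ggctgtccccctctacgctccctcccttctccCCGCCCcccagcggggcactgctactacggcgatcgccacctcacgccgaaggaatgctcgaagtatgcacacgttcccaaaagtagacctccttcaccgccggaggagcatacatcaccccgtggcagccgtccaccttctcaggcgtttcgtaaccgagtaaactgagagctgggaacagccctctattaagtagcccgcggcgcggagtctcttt
COL13A1: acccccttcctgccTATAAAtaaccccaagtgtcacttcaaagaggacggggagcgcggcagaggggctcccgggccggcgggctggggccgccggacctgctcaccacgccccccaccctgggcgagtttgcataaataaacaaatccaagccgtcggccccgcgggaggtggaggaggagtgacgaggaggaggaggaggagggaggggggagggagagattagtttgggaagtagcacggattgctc
They lie at chr9:134641553-134641802 on the plus strand for COL5A1, chr3:48595330-48595579 on the minus strand for COL7A1, chr6:75206054-75206303 on the minus strand for COL12A1 and chr10:69801656-69801905 on the plus strand for COL13A1. The RefSeq start can differ from the GENCODE gene span given above. The windows of COL5A1, COL13A1 and COL6A2 ended inside those spans, and that of COL16A1 lay wholly inside its span. A GC box occurred in 5 of the 6 upstream windows, COL13A1 being the exception, and in 42.3% of 27305 gene promoters of the same length. A TATA box occurred in those of COL7A1, COL13A1 and COL6A2, against 11.1% of all promoters, and no CCAAT box occurred in the 6 windows, against 33.0%. The upstream windows were rich in G and C, from 60.8% in COL7A1 and 61.2% in COL12A1 to 74.0% in COL5A1 and 79.6% in COL6A2, where the median promoter had 58.0%.

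The genes flanking these collagens moved in both directions. Of 13 neighbouring genes tested that are not members, 7 were higher, 3 were lower and 3 were not called. Among all genes tested 27.3% were higher and 28.5% lower. Some neighbours lie far off, such as CD109 at 1256010 bases from COL12A1 and DCBLD2 at 736786 bases from COL8A1. WDR75 lies 216121 bases from COL5A2 and RXRA 201189 bases from COL5A1. COL5A1 rose, and its neighbour RXRA, a nuclear receptor gene, rose by 0.28 on the log2 scale (edgeR adjusted p = 6.51e-05). On either side of COL12A1, which fell, CD109 fell by 0.41 (edgeR adjusted p = 3.24e-06) and COX7A2, a subunit of cytochrome oxidase, rose by 0.55 (edgeR adjusted p = 3.53e-19). On either side of COL16A1, which fell, PEF1 rose by 0.31 (edgeR adjusted p = 5.88e-09) and ADGRB2 fell by 1.28 (edgeR adjusted p = 1.49e-31). Beside COL13A1, which fell, FAM241B rose by 0.62 (edgeR adjusted p = 1.66e-10) and H2AFY2 had a log2 fold change of 0.03. WDR75, beside COL5A2, rose by 0.38 (edgeR adjusted p = 0.00255), and TMEM92, beside COL1A1, had a log2 fold change of -0.33 (edgeR adjusted p = 0.0588). With the length and GC offset the log2 fold change of RXRA was 0.508 and the log2 fold change of COX7A2 was 0.336. Antisense genes are annotated over COL5A1, COL5A2 and COL16A1, and the strand setting of the counting is not given in the sources used here, so reads from both strands may be joined there. The antisense gene over COL16A1 had at most 1 count in a library, and the others were not analysed here.

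The remaining collagen genes were more often lower than higher. Of 12 tested outside the set, 2 rose and 8 fell, where 27.3% of all genes tested were higher and 28.5% lower. The median log2 fold change of these 12 was -0.49. With the length and GC offset 4 of them were called higher, and in DESeq2 and without shPARP1 replicate 3 none was. COL4A2, a chain of the basement membrane network, fell by 0.70 on the log2 scale and COL18A1, the source of endostatin, fell by 0.66. COL9A2, a fibril-associated chain of cartilage, fell by 0.53, and COL14A1, a relative of COL12A1, by 0.94. With the length and GC offset the log2 fold change of COL4A2 was -0.397 and the log2 fold change of COL18A1 was -0.337, and on log2(FPKM + 1) the log2 fold change of COL14A1 was -0.469; all 3 were still called. The 2 rises, COL11A2 and COL17A1, were of transcripts under 3 CPM in both groups.

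Most genes of the machinery that makes collagen were lower, by less in folding and export than in the crosslinking enzymes named here. Of 21 genes of procollagen folding and export that were tested, 3 rose and 17 fell, with a median log2 fold change of -0.26. Over all genes tested 27.3% were higher and 28.5% lower. COLGALT1, which adds galactose to hydroxylysine, averaged 315 ± 9.50 CPM in shPARP1 and 535 ± 8.79 CPM in shCtrl and fell by 0.76 on the log2 scale. The prolyl 3-hydroxylase P3H2 fell by 0.70, P3H4 by 0.44 and CRTAP, a subunit of the prolyl 3-hydroxylase complex, by 0.39; with the length and GC offset the log2 fold change of CRTAP was -0.256. SERPINH1, the collagen chaperone HSP47, was among the few that rose, by 0.09 (edgeR adjusted p = 0.00435; named after its value was seen). Of 12 tested genes of procollagen processing and crosslinking none rose and 8 fell, with a median of -0.53. The lysyl oxidases LOXL2 (1740 ± 17.3 CPM in shPARP1 and 3540 ± 85.3 CPM in shCtrl), LOXL1 and LOX fell by 1.02, 1.04 and 1.17. TLL2, a tolloid-like proteinase, fell by 1.53.

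Partners of collagen outside the cell were lower where called. Of 12 tested fibril-associated proteins none rose and 10 fell, with a median log2 fold change of -0.80, among them the thrombospondins THBS1 (-1.34) and THBS2 (-1.42), the collagen-binding SPARC (-0.86) and the matrilin MATN2 (-1.40). Of 8 tested collagen receptors none rose and 5 fell, with a median of -0.67. Over all genes tested 27.3% were higher and 28.5% lower. ITGB1, the shared subunit of collagen-binding integrins, fell by 0.74, and DDR1, a receptor kinase for collagen, by 0.98. The alpha subunits of those integrins were scarce. ITGA1 averaged 1.84 CPM in shPARP1 and 3.45 CPM in shCtrl, and ITGA2, ITGA10 and ITGA11 had at most 12 counts in any library (named after their values were seen). ANTXR1 and ANTXR2, which bind type VI collagen, fell by 0.82 and 0.53. On log2(FPKM + 1) the log2 fold change of ANTXR2 was -0.276. For the processing, fibril-associated and receptor lists the count of higher genes was 0 in edgeR, 0 in DESeq2 and 0 in edgeR at an unadjusted p under 0.05.

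Genes of collagen breakdown were split. Of 10 tested, 3 rose and 5 fell, with a median log2 fold change of -0.25. Over all genes tested 27.3% were higher and 28.5% lower, so the share of breakdown genes that rose was close to that of all genes. The interstitial collagenase MMP1 averaged 31.7 ± 2.11 CPM in shPARP1 and 6.97 ± 1.49 CPM in shCtrl (SD, n = 3 each) and rose by 2.18 on the log2 scale. MMP14, a membrane-bound collagenase, fell by 0.36, the cathepsin CTSB by 0.29 and MRC2, the endocytic collagen receptor, by 0.88. Of 16 tested regulators known at collagen genes, 3 rose and 8 fell, with a median of -0.11. With the length and GC offset 5 of these regulators were lower. SP1, which binds GC boxes, fell by 0.62, RFX5, a repressor of type I collagen genes, by 0.52, and SMAD7, the inhibitory SMAD, by 0.82, while YBX1 rose by 0.32. With the length and GC offset the log2 fold change of CTSB was -0.134 and the log2 fold change of YBX1 was 0.193, both still called.

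**Figure D5:**
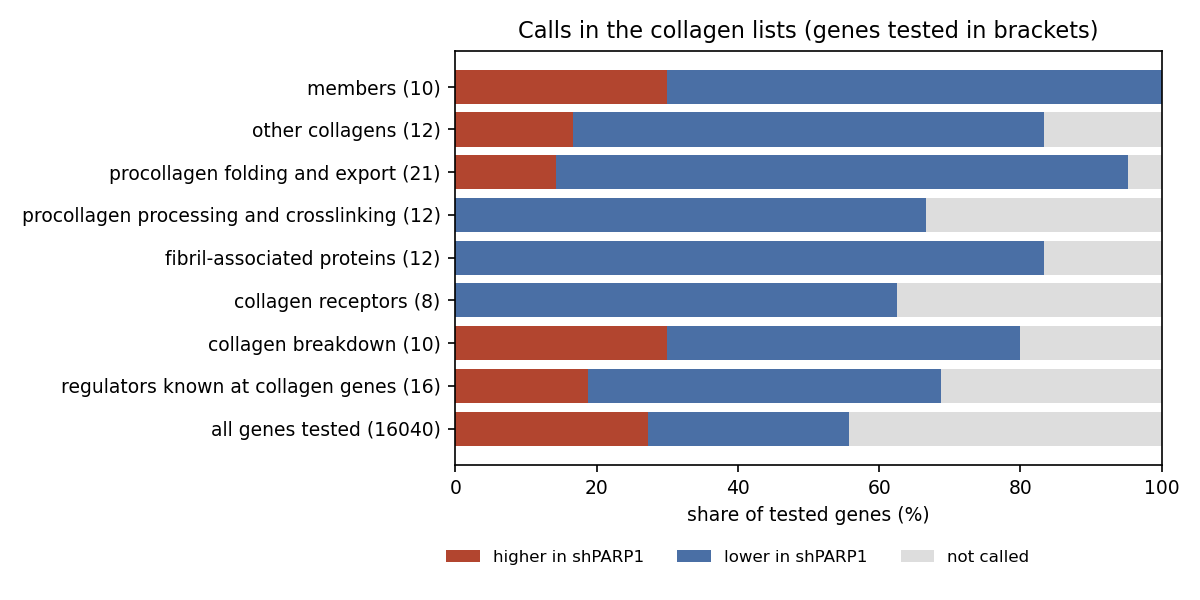
Share of tested genes (horizontal axis, percent) that were higher in shPARP1, lower in shPARP1 or not called, for the 10 collagen genes, 7 related lists and all 16040 genes tested. Over all genes 27.3% were higher and 28.5% lower, and none of the tested processing, fibril-associated or receptor genes was higher.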

How the data were processed

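RNA from 3 shPARP1 and 3 shCtrl samples of HK-2 cells was sequenced; per the labels' protocols, polyadenylated RNA was used with a stranded kit in paired-end mode. The authors deposited raw read counts per gene and 2-decimal FPKM values. The submitters' processing notes name GRCh38 as the build, and TopHat2, edgeR and bcl2fastq among the tools. How reads were assigned to genes, and with which annotation, is not given in the sources used here.

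Counts were fitted in R 4.3.3 with edgeR 4.0.16: filterByExpr (16040 of 30403 genes), TMM, robust quasi-likelihood F test, Benjamini-Hochberg adjustment over all genes tested, call at 0.05. Library sizes were those of the tested genes. The SE is the log2 fold change over the square root of F. Replicate pairs differed by more than sampling noise and were counted separately. The fit was tested on simulated data of this comparison (16040 genes, 50 changed at each fold size). Recovery was 42% of genes for a 1.25-fold change, 66% for 1.5-fold, 86% for 2-fold and 100% for 4-fold, and 8 unchanged genes were called. Far fewer genes changed in the simulation than the 55.7% called in the data. The recovery and the number of false calls therefore need not carry over to the data. Alternatives used DESeq2 1.42.0 and limma 3.58.1; the length and GC offset used natural splines on exon length and GC content from GENCODE 29, available for 99.2% of tested genes. Chain ratios were tested with scipy 1.17.1 by exact permutation.

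The members and lists were chosen with earlier results of these data known. Named genes are PARP1, the 10 collagens, up to 4 called genes of each list by smallest p-value among those averaging 5 CPM or more, and tested neighbours of a member.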

Additional observations from a re-analysis of the deposited data

How the results depend on the processing

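Under the length and GC offset COL1A1 (0.11), COL6A1 (0.020) and COL6A2 (0.025) reversed, 4 members in place of 7 were called lower, and the log2 fold change of H2AFY2, a neighbour of COL13A1, was -0.089 in place of 0.03; the cause was not tested. Leaving out libraries gave H2AFY2, which was not called, -0.008 (without shCtrl replicate 3) to 0.054. COL1A1 lost its call in 12 of 16 alternatives, and kept it with its direction in 3: the replicate block, the stricter filter on low counts and the fit without shCtrl replicate 3. The log2 fold change of COL5A2 lost its call with limma-trend on log2(FPKM + 1), at 0.08 (adjusted p = 0.0536), and without shPARP1 replicate 1; the stricter filter did not test it. COL5A1, COL7A1, COL8A1, COL12A1, COL13A1 and COL16A1 kept direction and call in all 16 alternatives, but not their size: COL13A1 ranged from -1.782 to -0.502, COL12A1 from -0.825 to -0.295, COL7A1 from 0.281 to 0.635 and COL16A1 from -0.402 to -0.116. The values nearest 0 of COL13A1 and COL12A1 came from log2(FPKM + 1). Leaving out each library in turn gave 2 to 3 members higher and 6 to 7 lower.

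The COL5A1 over COL5A2 ratio, as a log2 difference, turned to 0.51 with log2(FPKM + 1), where the added 1 exceeds every COL5A2 value, and the COL1A1 over COL5A1 ratio moved to -0.65. Leaving out libraries gave -0.55 to -0.28 for COL5A1 over COL5A2 and -0.80 to -0.70 for COL1A1 over COL5A1. With the replicate block 3 members were called higher and 7 lower, as without it. The numbers did not pair the libraries, with correlations of same-numbered deviations of 0.036, -0.004 and 0.036. Depth limits COL5A2 and COL13A1, which had at most 33 and 81 counts in a library.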
